A study of Mus musculus with 8 samples.

Results

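PIWI proteins are Argonaute-like proteins of the germline that carry piRNAs, short RNAs that guide them to transposon transcripts and other targets. The 10 genes described here encode 3 PIWI proteins and 7 factors that make piRNAs or organise the granules in which they are made: Piwil1, Piwil2, Piwil4, Mael, Mov10l1, Asz1, Pld6, Gtsf1, Gpat2 and Ddx4. They were chosen by name, not by their values, and all 10 were found among the 19276 entries of the gene read tables, of which 19076 are gene symbols and 200 are piRNA precursor loci in sense or antisense. The study sequenced RNA of C57BL/6 mice aged 6 weeks that were heterozygous or homozygous for an Rnf17 mutation whose nature the labels do not give. Of its 8 libraries, 4 hold total RNA of adult testis (2 heterozygous, 2 homozygous). The other 4 hold RNA recovered from testis lysate by immunoprecipitation (IP) with the RNF17 antibody 1774 (2 heterozygous, 2 homozygous). The testis libraries of each genotype served as the input of its IP, and a wild type was not analysed here. No label says whether replicates came from separate animals, so a p-value here reflects how the libraries of a group differ, and that difference may be technical.

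RNF17, also called TDRD4, belongs to the Tudor domain proteins of germ cells; these domains are folds that recognise methylated arginines such as those in the tails of PIWI proteins. A piRNA begins as a long transcript that the helicase MOV10L1 feeds to the nuclease PLD6 on the outer mitochondrial membrane, where ASZ1 and GPAT2 also sit. PIWIL2 (MILI) is present from the fetal germ line onwards and PIWIL4 (MIWI2) acts in the nucleus of fetal germ cells. PIWIL1 (MIWI) appears in pachytene spermatocytes and persists in round spermatids.

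Gene reads per library ranged from 5661754 to 50575649, and the most deeply read library was homozygous testis replicate 2. Rnf17 itself, the targeted gene, followed the labels: its level was 507 and 551 CPM (read counts scaled to a common library size by TMM over the 8 libraries) in heterozygous testis and 50.3 and 97.7 CPM in homozygous testis. It stood at 1263 and 1189 CPM in the heterozygous IP and at 214 and 393 CPM in the homozygous IP. In the homozygous IP, Rnf17 RNA was still higher than in homozygous testis (log2 fold change 2.03, SE 0.47, edgeR adjusted p = 0.0396), a call lost without homozygous IP replicate 1 (adjusted p = 0.0555) or 2 (0.484) and in 1 fit over all 8 libraries (0.14). In every pair of values above and below, the value of replicate 1 is given before that of replicate 2.

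The cell types marked in these libraries differed with genotype. The summed level of 6 elongating spermatid genes (Prm1, Prm2, Tnp1, Tnp2, Odf1 and Akap4) was 3673 and 19300 CPM in heterozygous testis, against 181 and 161 CPM in homozygous testis, 4862 and 4263 CPM in the heterozygous IP and 157 and 196.5 CPM in the homozygous IP. The sum of 8 round spermatid genes was 1531 and 4501 CPM, 460.4 and 705 CPM, 1826 and 1799 CPM, and 694 and 676 CPM in the same order. The sum of 9 spermatocyte genes, in which most of the 10 genes are known to be expressed, overlapped between the testis groups (4818 and 7882 against 3063 and 6895 CPM) and was lower in the heterozygous IP (4190 and 4572 CPM) than in the homozygous IP (6079 and 6915 CPM). Its members went both ways between the IPs. EdgeR called 5 of 9 lower in the heterozygous IP (12.4% of all entries), Hspa2 and Sycp1 among them. It called 1 higher (17.7% of all entries), Pgk2 (log2 fold change 1.80, adjusted p = 5.48e-05). In homozygous against heterozygous testis, 8 of the 9 lay below 0, with a median log2 fold change of -0.45 beside 0.04 over all entries, and edgeR called 0 (0.0% of entries). Sums of 7 spermatogonial genes lay between 87.6 and 259 CPM, of 7 Sertoli genes between 350.2 and 1005 CPM and of 5 Leydig genes between 163 and 630.3 CPM, with the highest value of each in homozygous testis. The Leydig marker Insl3 and the globin genes Hba-a1 and Hbb-b1 had 0 reads in all 8 libraries, so blood was marked only by Alas2. In these bulk samples, fewer cells of a type and less RNA per cell cannot be told apart, and the part of cell makeup in the differences below was not tested.

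**Figure D1:**
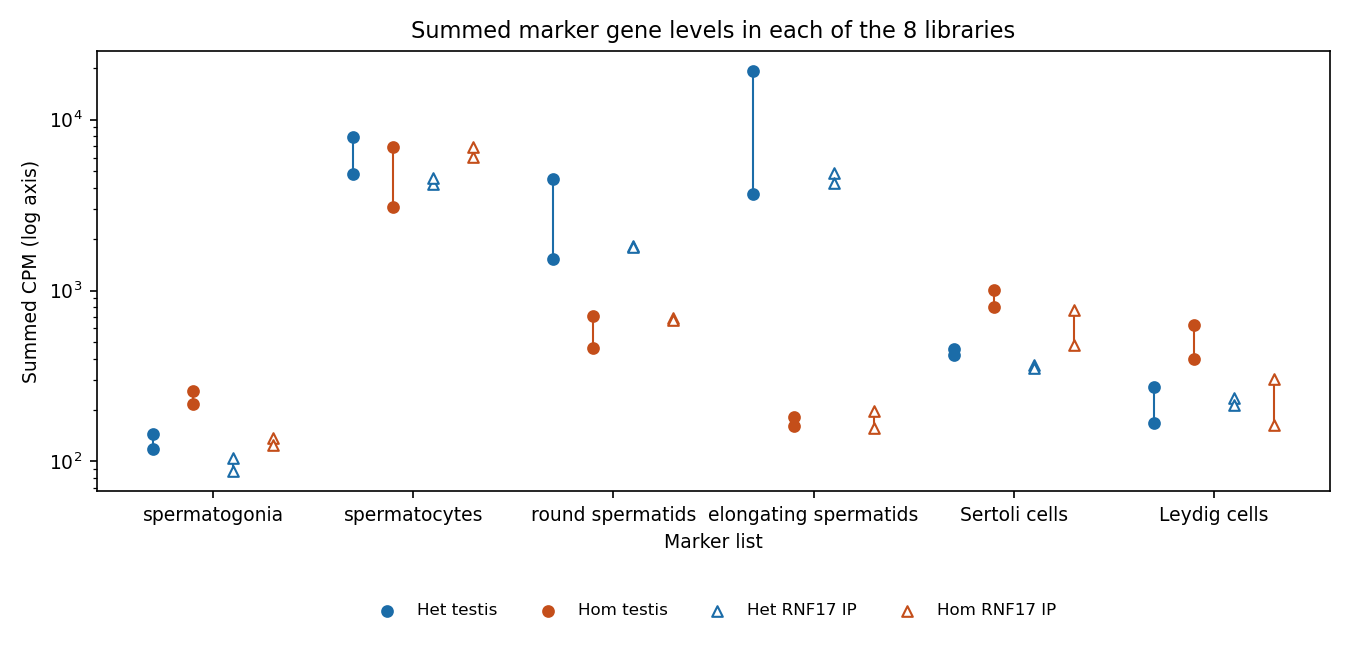
Summed CPM (log axis) of 6 marker gene lists in each library; circles are testis, triangles RNF17 IP, blue heterozygous and orange homozygous, and lines join the 2 libraries of a group. Elongating spermatid markers lie between 157 and 196.5 CPM in the 4 homozygous libraries and between 3673 and 19300 CPM in the 4 heterozygous libraries.

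Compared per kilobase of the longest coding transcript in the mouse annotation, the 10 genes spanned a wide range of levels in heterozygous testis. Mael, whose product is needed for piRNA granules and transposon control, stood at 471 ± 73.1 CPM per kb (SD, n = 2), and Ddx4, the VASA helicase of germ cell granules, at 435 ± 63.9 CPM per kb. The ranges of these 2 genes overlapped, and both lay above all others. Next came Gtsf1, the zinc finger cofactor of PIWI proteins, at 65.5 ± 16.1 CPM per kb, Piwil1 at 49.1 ± 20.5, Asz1 at 38.3 ± 28.1, Mov10l1 at 30.5 ± 3.56 and Piwil2 at 27.3 ± 6.54 CPM per kb, each overlapping its neighbour in this order. Pld6 followed at 15.2 ± 2.90 CPM per kb, then Gpat2, a mitochondrial acyltransferase relative, at 4.48 ± 0.754 CPM per kb, and then Piwil4 at 0.157 ± 0.135 CPM per kb; none of these 3 genes overlapped the next one. Piwil4 was close to the limit of detection: its 8 libraries held 123 reads in all, between 1 and 71 per library, where Ddx4 held 144794.

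Between the IPs the order changed most for Gtsf1, which went from rank 4 in heterozygotes to rank 8 in homozygotes, and for Asz1, which went from rank 9 to rank 6. In the heterozygous IP, Ddx4 (370 ± 36.3 CPM per kb) and Mael (249 ± 15.4) led again, followed by Piwil1 (99.9 ± 5.58), Gtsf1 (66.7 ± 23.2) and Mov10l1 (57.5 ± 2.06 CPM per kb). In the homozygous IP, Mov10l1 (55.3 ± 8.56 CPM per kb) stood in the third place and overlapped Piwil1 (48.2 ± 8.25), while Gtsf1 (13.4 ± 5.18) overlapped its neighbours Pld6 (17.2 ± 1.66) and Gpat2 (10.5 ± 0.351 CPM per kb). The gene models were those of GENCODE M21, another build than the mm9 named in the submitters' processing notes, and a strand rule for counting is not given in the sources used here. Of the 10 genes, Piwil4 alone shares exon sequence with another gene model, Gm10706 on the other strand, which has no entry in the tables.

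**Figure D2:**
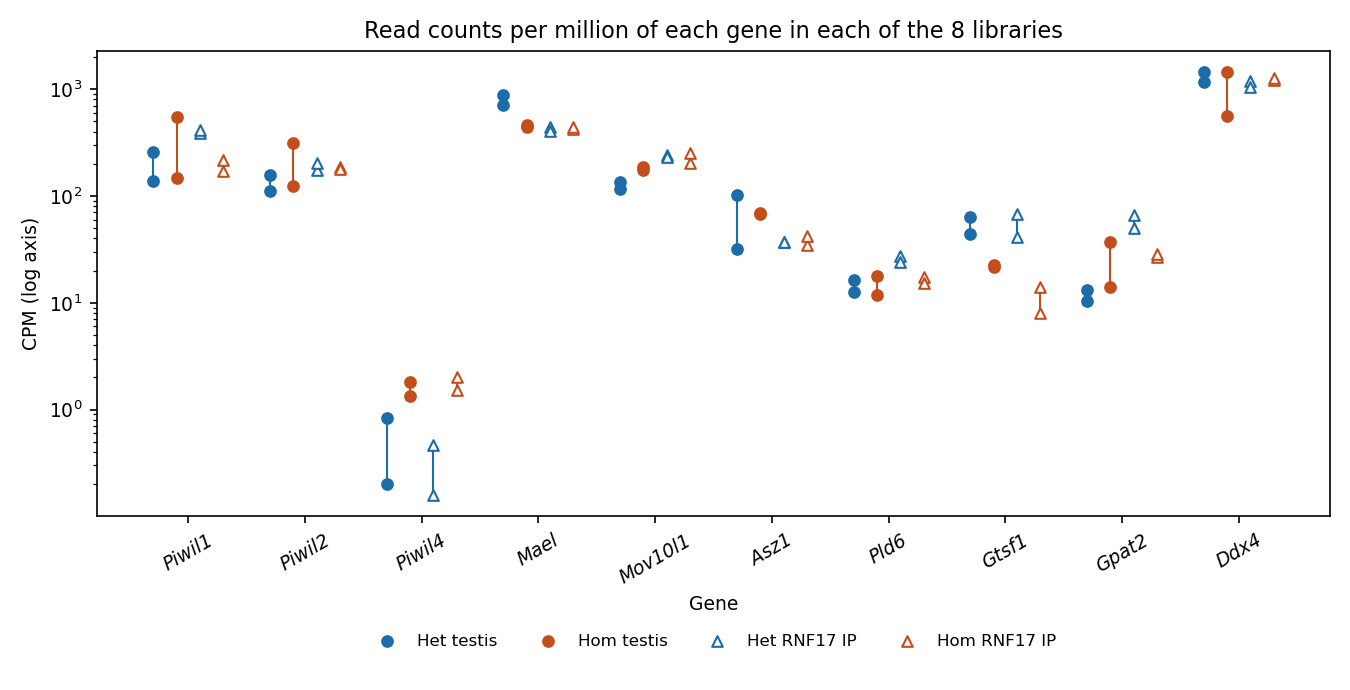
CPM of the 10 genes (log axis) in each of the 8 libraries, with the symbols of the marker plot. The 2 libraries of the IP groups lie close together for most genes, while homozygous testis replicates lie apart for Piwil1 (149 and 554 CPM) and Ddx4 (566 and 1449 CPM).

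The comparison of the heterozygous with the homozygous IP asked which RNAs differed in level between the IPs of the 2 genotypes. It was not set against the input, so differences between the testes of the 2 genotypes enter it. In these data 4 of the 9 genes tested were higher in the heterozygous IP and 0 were lower: Gtsf1, Gpat2, Piwil1 and Pld6. Over all 13427 entries tested, 17.7% were called higher and 12.4% lower, 30.1% in all. DESeq2 called 3 of the 9 genes (Gtsf1, Gpat2 and Piwil1) and 26.5% of entries. The median log2 fold change of the 9 genes was 0.14, beside 0.03 over all entries, so the other 5 genes lay near 0.

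Gtsf1 was also lower in homozygous than in heterozygous testis, short of the threshold (log2 fold change -1.28, SE 0.54, edgeR adjusted p = 0.488). Its recovery over the input differed between genotypes by 1.04 on the log2 scale (SE 0.61, edgeR adjusted p = 0.639). In the IPs it had 68.05 and 41.2 CPM in heterozygotes and 14 and 8.01 CPM in homozygotes. Both heterozygous values lay above both homozygous ones, 4.96 times as high in the mean (54.6 ± 19 against 11 ± 4.24 CPM, SD, n = 2). The fitted difference was 2.41 on the log2 scale (SE 0.33; adjusted p = 2.76e-04 in edgeR and 2.66e-09 in DESeq2), and it stayed past the threshold whichever library was left out (2.00 to 2.83).

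Piwil1 had 385.5 and 417 CPM in the heterozygous IP and 217 and 170.2 CPM in the homozygous IP, with no overlap and a ratio of means of 2.07. On the log2 scale this difference was 1.13 (SE 0.21, adjusted p = 0.00174 in edgeR). Leaving out any library kept the call, with values from 0.97 to 1.29. By contrast Piwil2, which encodes the other PIWI protein of adult testis, had 174 and 204 CPM in the heterozygous IP and 187 and 178 CPM in the homozygous IP, and the groups overlapped (log2 fold change 0.14, SE 0.19, edgeR adjusted p = 0.634). Whether Piwil1 and Piwil2 differ from each other in this response was not tested.

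Gpat2 had 66.7 and 50.2 CPM in the heterozygous IP against 27.1 and 28.4 CPM in the homozygous IP. The groups did not overlap, and the fitted difference was 1.16 (SE 0.23, adjusted p = 0.00321 in edgeR). Pld6, the mitochondrial nuclease also known as Zucchini, had 27.2 and 24.2 CPM against 17.4 and 15.2 CPM, again with no overlap. Its log2 fold change of 0.75 (SE 0.25, edgeR adjusted p = 0.0427) was close to the threshold. Its call was lost in DESeq2 (adjusted p = 0.103) and without heterozygous IP replicate 1 (0.292), heterozygous IP replicate 2 (0.121) or homozygous IP replicate 2 (0.0985).

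The helicase gene Mov10l1 had 243.5 and 231.5 CPM in the heterozygous IP and 203 and 253 CPM in the homozygous IP, which overlapped (log2 fold change 0.14, SE 0.20). Asz1, a mitochondrial scaffold protein, had 37.1 and 37.2 CPM against 35 and 42 CPM, and Mael had 439 and 403 CPM against 423.5 and 439 CPM. For both, the fitted log2 values (0.03 and 0.05) had the opposite sign to the ratio of means (0.964 and 0.977). The groups overlapped and no direction can be given. Ddx4 had 1193 and 1038 CPM in the heterozygous IP and 1214 and 1277 CPM in the homozygous IP, without overlap, but with a log2 fold change of only -0.08 (SE 0.20, edgeR adjusted p = 0.815). Over all entries, 36.1% lay below without overlap and 32.2% above. Piwil4 did not pass the filter on low counts: it had 5 and 1 reads in the heterozygous IP and 8 and 12 reads in the homozygous IP.

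When all 8 libraries were fitted with 1 shared estimate of the spread, Gtsf1 alone of the 4 genes stayed past the threshold (2.31, adjusted p = 0.0332). Piwil1 (1.05, adjusted p = 0.383), Gpat2 (1.08, 0.276) and Pld6 (0.66, 0.418) did not. Counts over all entries also leaned on 1 library: 4042 entries were called with all IP libraries and 2069 without heterozygous IP replicate 1.

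**Figure D3:**
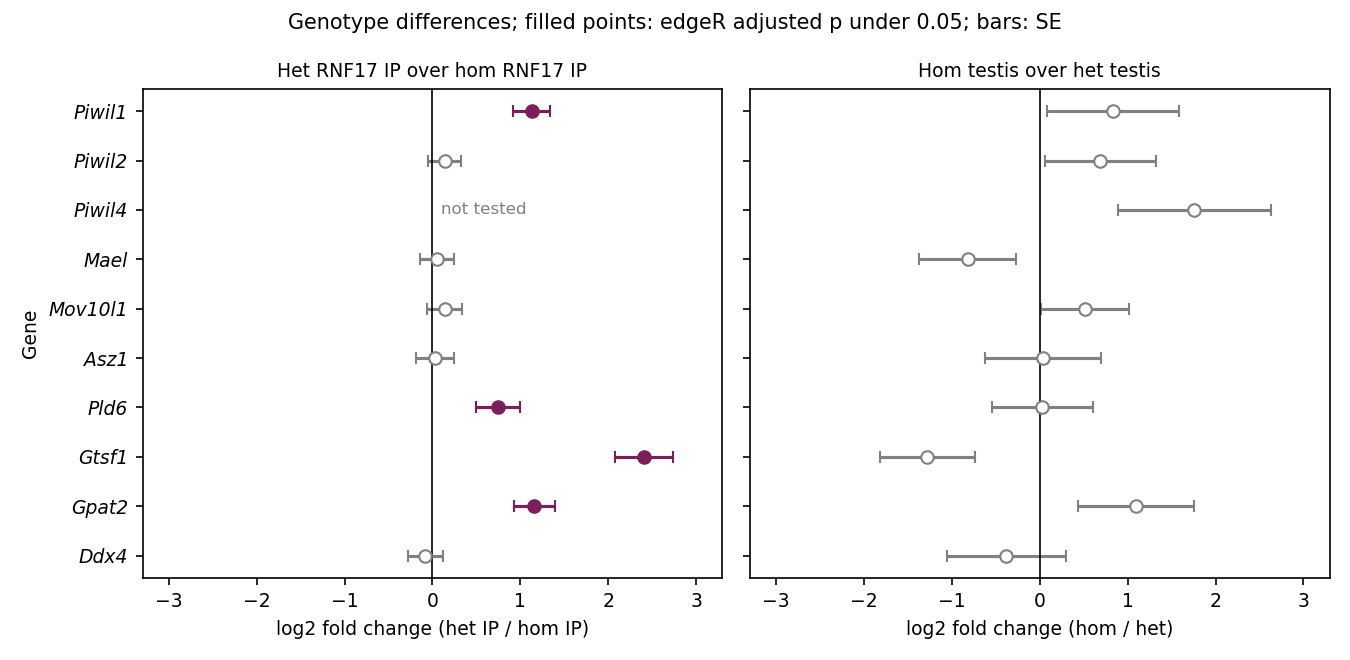
Log2 fold changes (points) with their SE (bars) between the IPs (left, 9 genes, Piwil4 not tested) and between the testes (right, 10 genes); filled points passed an edgeR adjusted p of 0.05. Between the IPs Gtsf1 (2.41), Gpat2 (1.16), Piwil1 (1.13) and Pld6 (0.75) are filled, and between the testes no point is.

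A sequence that bears on these genes is the promoter, because MYBL1 (A-MYB), the transcription factor of pachytene spermatocytes, is known to drive piRNA precursors together with genes that process them. RefSeq promoters (GRCm38.p6) matched 9 of the 10 genes, with 11 start sites. The 250 bases before each start were searched on both strands for the MYB recognition letters CAACTG or TAACTG and for the related CAACGG or TAACGG. A match was found for 3 genes, Piwil1, Mov10l1 and Pld6, in 3 of 11 windows, and 23.7% of all 32851 promoters in the table held one. Only 3.44% of promoters held at least 2, as Piwil1 did, with matches that start 139 and 73 bases before the gene. The Pld6 match belonged to the downstream one of its 2 start sites. The windows of the 3 genes called between the IPs by both edgeR and DESeq2 are shown 5′ to 3′ on the strand of the gene, with matches on either strand in capitals; Gtsf1 and Gpat2 held none. Piwil1 lies at chr5:128735996-128736245 (plus strand), Gtsf1 at chr15:103430428-103430677 (minus) and Gpat2 at chr2:127424949-127425198 (plus).
Piwil1: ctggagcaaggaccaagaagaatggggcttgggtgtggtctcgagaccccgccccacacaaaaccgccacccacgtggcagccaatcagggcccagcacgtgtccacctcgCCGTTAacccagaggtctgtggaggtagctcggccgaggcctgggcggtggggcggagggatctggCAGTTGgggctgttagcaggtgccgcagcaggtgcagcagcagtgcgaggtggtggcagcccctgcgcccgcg
Gtsf1: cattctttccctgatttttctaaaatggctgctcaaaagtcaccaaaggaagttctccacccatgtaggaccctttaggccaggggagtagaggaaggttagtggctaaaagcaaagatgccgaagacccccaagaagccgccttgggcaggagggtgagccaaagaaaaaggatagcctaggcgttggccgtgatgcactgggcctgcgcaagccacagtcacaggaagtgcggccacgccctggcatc
Gpat2: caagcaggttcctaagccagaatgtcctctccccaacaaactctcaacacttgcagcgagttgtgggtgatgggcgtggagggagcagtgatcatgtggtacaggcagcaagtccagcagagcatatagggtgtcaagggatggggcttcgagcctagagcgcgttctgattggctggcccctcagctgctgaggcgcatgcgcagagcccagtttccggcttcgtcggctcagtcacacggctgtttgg
Mybl1 itself had 200 and 215.5 CPM in heterozygous testis, 84.8 and 291 CPM in homozygous testis, 126 and 125 CPM in the heterozygous IP and 136 and 132 CPM in the homozygous IP. Its log2 fold change was -0.14 between the testes (SE 0.68, edgeR adjusted p = 0.972) and -0.01 between the IPs (SE 0.19, 0.975).

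The comparison of homozygous with heterozygous testis asked whether RNA of the piRNA machinery differs with genotype in the tissue itself. None of the 10 genes passed the threshold in edgeR (0 of 10, beside 0.0% of 14332 entries) or in DESeq2 (0 of 10, beside 5.05% of entries), and 1 of 10, Gtsf1, had an unadjusted p under 0.05, as did 10.1% of all entries. Their log2 fold changes ran from -1.28 to 1.76 with a median of 0.28, beside 0.04 over all entries. None of the 10 was among the 734 genes of the authors' deposited table of differences, where the gene read tables hold 19276 entries. The SE of the 10 genes was between 0.50 and 0.87. In edgeR the smallest adjusted p of any entry was 0.133. Neither Prm1 (log2 fold change -7.56) nor the targeted gene Rnf17 (-2.84, SE 0.61, edgeR adjusted p = 0.139) passed. The edgeR count therefore cannot tell an unchanged gene from a changed one.

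Of the 2 genes that lay lower without overlap, Gtsf1 had 44.3 and 63 CPM in heterozygous and 21.8 and 22.6 CPM in homozygous testis, a log2 fold change of -1.28 (SE 0.54, edgeR adjusted p = 0.488). Mael had 709 and 884 CPM against 462 and 444 CPM (-0.82, SE 0.55, adjusted p = 0.699). The genotypes were apart in all 4 libraries for both genes, and neither difference passed after adjustment (unadjusted p = 0.0489 for Gtsf1 and 0.182 for Mael in edgeR). Over all entries, 19.7% lay lower without overlap and 20.3% higher.

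Higher without overlap in homozygous testis were 3 genes. Mov10l1 had 136 and 115.5 CPM in heterozygous and 186 and 174 CPM in homozygous testis (log2 fold change 0.51, SE 0.50). Gpat2 had 13.2 and 10.4 CPM against 36.7 and 14 CPM (1.10, SE 0.66), where homozygous replicate 1 was far above replicate 2. Piwil4 had 5 and 3 reads in heterozygotes and 18 and 71 reads in homozygotes, a level of 0.833 and 0.203 CPM against 1.83 and 1.33 CPM (1.76, SE 0.87, edgeR adjusted p = 0.574). Its value became 2.88 without heterozygous replicate 1 and 0.90 without replicate 2, and that of Gpat2 became 0.31 without homozygous replicate 1 and 1.65 without replicate 2.

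The remaining 5 genes overlapped between genotypes, and their direction rested on single libraries. Piwil1 had 139 and 255.5 CPM in heterozygous and 149 and 554 CPM in homozygous testis; the difference of 0.83 on the log2 scale (SE 0.75) became -0.38 without homozygous replicate 2. Piwil2 had 112 and 157 CPM against 125 and 311 CPM, and its value of 0.69 (SE 0.63) became -0.09 without the same library. Ddx4 had 1175 and 1447 CPM against 566 and 1449 CPM, and -0.38 (SE 0.68) became 0.22 without homozygous replicate 1. In homozygous testis, where these 3 genes were higher in replicate 2 than in replicate 1, the summed spermatocyte markers were also higher in replicate 2 (6895 against 3063 CPM). Of all libraries, replicate 1 held the lowest value of this sum and of Ddx4, and replicate 2 the highest of Piwil1 and Piwil2. Hspa2 (3356 against 1442 CPM) and Ldhc (2238 against 845 CPM) differed most in CPM. Hormad1 (246 against 75.4 CPM) differed most as a ratio, while Dmc1 and Syce3 were lower. Sums of round spermatid (705 against 460.4 CPM), Sertoli (1005 against 797 CPM) and Leydig genes (630.3 against 395.9 CPM) were higher too. Those of elongating spermatid (161 against 181 CPM) and spermatogonial genes (217 against 259 CPM) were lower. The part of cell makeup in this was not tested.

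Asz1 had 101 and 32 CPM in heterozygous and 67.6 and 69 CPM in homozygous testis: the heterozygous replicates lay on either side of the homozygous pair, and its value of 0.04 became -0.56 without heterozygous replicate 2. Pld6 had 12.5 and 16.4 CPM against 11.8 and 17.8 CPM, and its value of 0.03 became -0.17 without heterozygous replicate 1 and -0.28 without homozygous replicate 2.

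Recovery over the lysate was compared within each genotype; these comparisons share the IP libraries with the one above and the testis libraries with the one between testes. In heterozygotes, 5 of the 9 genes tested lay above the input without overlap and 1 below, where 28.1% of all entries lay above and 24.9% below. EdgeR called 0 of 9 (0.0% of 13562 entries), with 4 of 9 at an unadjusted p under 0.05 (18.1% of entries). DESeq2 called 1 of 9, Gpat2, and 5.03% of the entries it tested. The median log2 fold change of the 9 genes was 0.53, beside -0.04 over all entries.

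Gpat2 had the largest difference of the 9, from 13.2 and 10.4 CPM in heterozygous testis to 66.7 and 50.2 CPM in the IP. All IP values lay above all input values, 5.07 times as high for replicate 1 and 4.85 times for replicate 2. The log2 difference was 2.33 (SE 0.44; adjusted p = 0.206 in edgeR and 0.00573 in DESeq2). Piwil1 went from 139 and 255.5 CPM to 385.5 and 417 CPM (1.07, SE 0.38, edgeR adjusted p = 0.256), Mov10l1 from 136 and 115.5 CPM to 243.5 and 231.5 CPM (0.93, SE 0.34), and Pld6 from 12.5 and 16.4 CPM to 27.2 and 24.2 CPM (0.87, SE 0.40). Piwil2 lay above its input by less (0.53, SE 0.34).

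Below the input without overlap was Mael, with a log2 fold change of -0.89 (SE 0.31, edgeR adjusted p = 0.253): 709 and 884 CPM in heterozygous testis and 439 and 403 CPM in the IP. Gtsf1, the gene with the largest difference between the IPs, was not above its input: it had 44.3 and 63 CPM in heterozygous testis and 68.05 and 41.2 CPM in the IP (0.07, SE 0.44), and its direction turned without heterozygous testis replicate 1 (-0.17) or heterozygous IP replicate 1 (-0.35). Asz1 (-0.86, SE 0.65) turned to 0.24 without heterozygous testis replicate 1. Ddx4 lay at -0.20 (SE 0.31).

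Leaving out a heterozygous testis library brought several of these genes past the threshold in edgeR, in fits where that group was a lone library assumed to vary like the IP pair. Without either of them, Piwil1 (adjusted p = 0.0211 and 5.82e-06 without replicate 1 and 2), Mael (3.91e-04 and 0.00277), Mov10l1 (5.70e-04 and 0.00582), Pld6 (0.0461 and 0.00602) and Gpat2 (9.91e-08 and 1.57e-06) passed. Without replicate 2 alone, Piwil2 (0.71, 0.010) and Asz1 (-1.49, 5.56e-06) passed. The spread between the heterozygous testis replicates does not enter these fits.

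In homozygotes, 0 of 10 genes were called by edgeR (3.28% of 13334 entries, 1.84% higher and 1.45% lower) and 0 of the 9 with an adjusted p by DESeq2 (11.3% of its entries). At an unadjusted p under 0.05 were 2 of 10, near the 22.7% of all entries. Log2 fold changes over the input ran from -1.02 to 0.34, with a median of 0.02 beside -0.01 over all entries. Gpat2 (27.1 and 28.4 CPM in the IP, 36.7 and 14 CPM in testis) lay at 0.13 (SE 0.48), and Piwil1 (217 and 170.2 CPM in the IP, 149 and 554 CPM in testis) at -0.86 (SE 0.54). Gtsf1 lay below the input without overlap, with 14 and 8.01 CPM in the IP and 21.8 and 22.6 CPM in testis (-1.02, SE 0.46, edgeR adjusted p = 0.212). So did Asz1, with 35 and 42 CPM against 67.6 and 69 CPM (-0.83, SE 0.36, adjusted p = 0.197), and Mael, by a small margin (-0.08, SE 0.40). Mov10l1 was above without overlap (0.34, SE 0.37). Thus 1 of the 10 genes lay above and 3 below, where 28.7% of all entries lay above and 28.0% below.

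Without homozygous testis replicate 2 the direction turned for Piwil1 (0.30), Piwil2 (from -0.26 to 0.46), Piwil4 (from 0.18 to -0.14) and Gpat2 (-0.49). Without homozygous testis replicate 1 it turned for Pld6 (from 0.13 to -0.14) and Ddx4 (from 0.30 to -0.23), and without homozygous IP replicate 2 for Piwil4 (-0.03). In fits with homozygous testis as a lone library, Piwil1 (-1.53, edgeR adjusted p = 7.72e-06), Piwil2 (-0.78, 0.0424) and Asz1 (-0.86, 0.0489) passed without replicate 1, and Asz1 (-0.90, 0.0199), Gtsf1 (-1.08, 0.0377) and Ddx4 (1.05, 0.00956) without replicate 2.

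**Figure D4:**
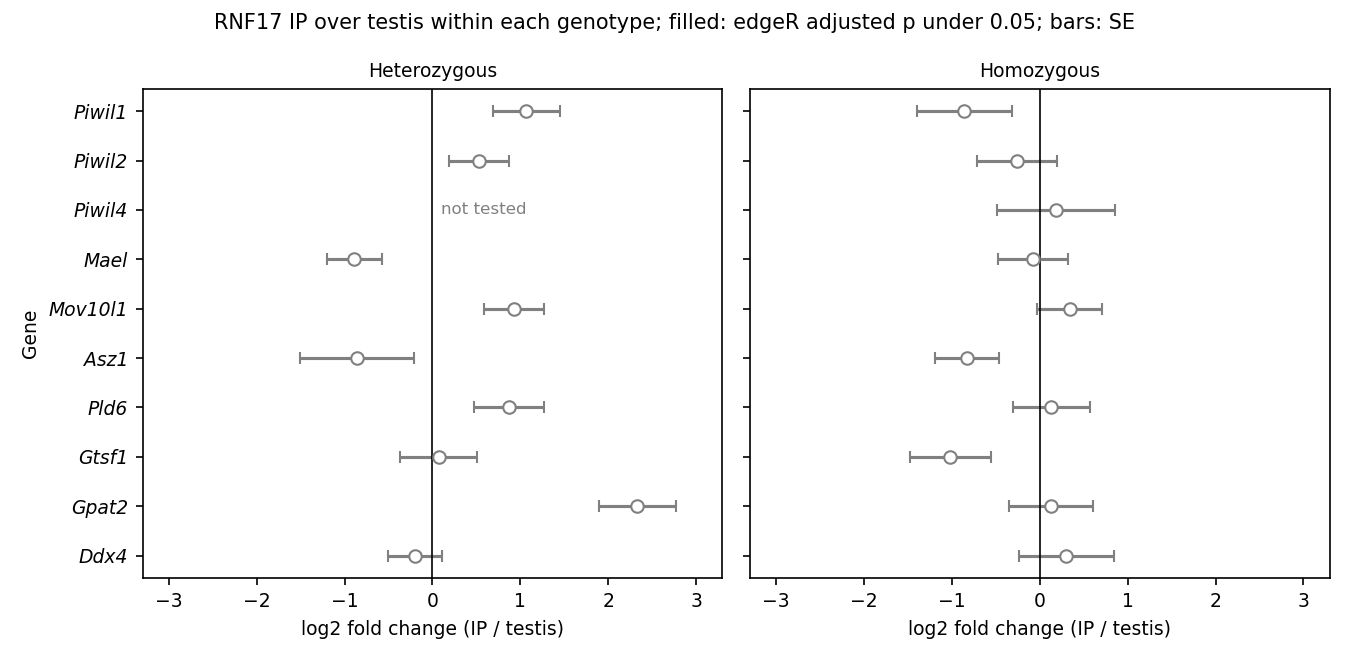
Log2 fold change of IP over testis (points) with SE (bars) in heterozygotes (left, 9 genes, Piwil4 not tested) and homozygotes (right, 10 genes); no point passed an edgeR adjusted p of 0.05. Gpat2 lies at 2.33 in heterozygotes and at 0.13 in homozygotes, and Piwil1 at 1.07 and -0.86.

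Whether recovery over the input differed between genotypes was tested as an interaction over all 8 libraries. EdgeR called 0 of the 10 genes (0.0% of 14180 entries), with 2 of 10 at an unadjusted p under 0.05 (9.68% of entries), and DESeq2 called 0 of the 8 to which it gave an adjusted p, beside 3.78% of its entries. The largest values were those of Gpat2, where the log2 recovery was 2.18 higher in heterozygotes (SE 0.69, edgeR adjusted p = 0.382), and Piwil1 (1.88, SE 0.83, adjusted p = 0.515). Both leaned on homozygous testis: Piwil1 lay at 0.69 without its replicate 2 and at 2.65 without its replicate 1, and Gpat2 at 2.74 and 1.41. Gtsf1 had 1.04 (SE 0.61), Piwil2 0.75 (SE 0.64), Pld6 0.70 (SE 0.55) and Mov10l1 0.57 (SE 0.45). Below 0 were Mael (-0.85, SE 0.46), Piwil4 (-0.57, SE 1.21), Ddx4 (-0.54, SE 0.66) and Asz1 (-0.01, SE 0.71). The median of the 10 was 0.63, beside 0.02 over all entries.

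Of the other genes of the pathway, 23 had an entry in the tables and Spocd1 and Gtsf2 were not matched. Between the IPs, edgeR called 2 of 23 higher in the heterozygous IP (17.7% of all entries) and 1 lower (12.4%). At an unadjusted p under 0.05 were 7 of 23 (41.6% of entries). Gtsf1l, a paralog of Gtsf1 expressed in testis, had 69.7 and 41.2 CPM in the heterozygous IP and 7.76 and 4.84 CPM in the homozygous IP (log2 fold change 3.23, SE 0.34, adjusted p = 3.80e-05). Dnmt3l, the cofactor of de novo DNA methylation, had 3.37 and 4.44 CPM against 1.32 and 1.00 CPM (1.81, SE 0.53, adjusted p = 0.0241). It had 36 and 28 reads against 7 and 6, and its call was lost in DESeq2 (adjusted p = 0.0925), which called 2 of the 23 (26.5% of entries). Lower was Hsp90aa1, a chaperone that helps load small RNAs, with 629 and 593 CPM against 1049 and 1242 CPM (-0.82, SE 0.20, adjusted p = 0.0104).

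Gtsf1l had the widest testis difference of these genes too, with 36.3 and 298 CPM in heterozygous and 15 and 21.6 CPM in homozygous testis (-3.20 on the log2 scale, SE 0.99; adjusted p = 0.293 in edgeR and 0.00562 in DESeq2). In the authors' deposited table its log2 fold change is -2.03, smaller in size than the group means given there imply. It is therefore not a like measure to the -3.20 above. Between the testes edgeR called 0 of 23, with 2 at an unadjusted p under 0.05 (10.1% of all entries), and DESeq2 called 1 (5.05% of entries). Both GTSF1 family genes thus had their lowest levels in the homozygous IP. The lists of spermatid markers above moved the same way between the IPs. EdgeR called 6 of 6 elongating and 7 of 8 round spermatid genes higher in the heterozygous IP (17.7% of all entries). Their median log2 fold changes were 7.15 and 1.40, beside 0.03 over all entries. For the genotype difference in recovery over the input, their medians were -0.28 and -0.68, beside 0.02 over all entries.

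Of the 8 genes for other Tudor domain proteins that partner PIWI proteins, edgeR called 0 between the IPs (30.1% of entries), with a median of -0.07. Between the testes it called 0 (0.0% of entries), with a median of 0.09. Tdrd6, a chromatoid body component and the member with the highest mean, lay at 0.07 (SE 0.22) between the IPs and at -0.12 (SE 0.79) between the testes. For the enzymes of piRNA ends, Henmt1 was at 0.13 (SE 0.23) and Pnldc1 at 0.11 (SE 0.40) between the IPs. Prmt5, whose product methylates arginines of PIWI proteins, and Wdr77, which encodes its cofactor, were at -0.05 (SE 0.22) and 0.57 (SE 0.24), and neither passed. Among the 4 AGO clade Argonautes, which carry microRNAs rather than piRNAs, edgeR called 1 higher in the heterozygous IP (17.7% of entries). This was Ago2, with 101 and 89.2 CPM against 41.6 and 46.4 CPM (log2 fold change 1.20, SE 0.20, adjusted p = 0.00121).

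The 10 genes were not alike in their pattern over the 8 libraries. Likeness was measured as the root mean square difference of log2 CPM after each gene was centred on its own mean. Piwil2 was the closest of the other 9 genes to Piwil1, at 0.406, and ranked 89 among 14179 entries, followed by Pld6 at 0.455, while Gtsf1 lay at 1.03 and Gpat2 at 1.04. The entries most like Piwil1 were Pdhb (0.231), a subunit of pyruvate dehydrogenase, 1700012A16Rik (0.235) and Cct8 (0.239), a subunit of the chaperonin TRiC. Those most like Piwil2 were Pi4ka (0.112), a lipid kinase, Mdh1b (0.125) and Nudt16 (0.130). Those most like Ddx4 were the mismatch repair gene Mlh3 (0.107), another TRiC subunit gene, Cct4 (0.121), and the cohesin release factor gene Wapal (0.129). These values describe the 8 libraries and share their depth and scaling.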

How the data were processed

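RNA of 4 testis and 4 RNF17 IP samples was sequenced, and the authors deposited raw read counts per gene symbol or piRNA precursor locus. STAR, DESeq and mm9 are named per the submitters' processing notes; no version, role or counting rule is given for them (not given in the sources used here). Per the labels' protocols, cDNA was primed with not-so-random primers. The authors' deposited table of testis differences gives normalized mean signal, a log2 fold change, its standard error (a score) and p-values; only log2 fold changes were printed from it. Testis columns repeated in the IP tables were identical in 4 of 4 cases, and 0 sample columns were unmapped. Transposon tables were not used.

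Counts were tested in R 4.3.3 with edgeR 4.0.16 (quasi-likelihood, TMM, filterByExpr, Benjamini-Hochberg adjustment, threshold 0.05), each comparison on its own 4 libraries and the interaction on all 8. CPM per library used TMM factors over all 8. Alternatives were DESeq2 1.42.0, RLE scaling, no filter, gene symbols only, a replicate block, 1 fit over all libraries and each library left out. The procedure was tested on simulated counts with the same spread for every gene, which does not show how it performs at the spread of these libraries. All 10 genes and Rnf17 were named; of other lists, genes past the threshold or else that with the highest mean CPM; further genes named were chosen after their values were seen. Members and lists were chosen with earlier results of these data known.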

Additional observations from a re-analysis of the deposited data

How the results depend on the processing

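Counts of entries called moved with the processing, and the cause was not tested. Between the testes, 0 calls became 710 in DESeq2, 361 with no filter, 943 with the replicate block and 655 in 1 fit over all 8 libraries (73 to 1273 with a library left out). Between the IPs, 4042 became 487 in 1 fit over all libraries (2069 to 5414 with a library left out). For heterozygous IP over testis, 0 became 603 in DESeq2, 1 with no filter, 194 with the replicate block and 3 in 1 fit (11 to 7278). For homozygous IP over testis, 438 became 1333 in DESeq2, 1469 with no filter, 1010 with the replicate block and 51 in 1 fit (89 to 4556). The interaction count of 0 became 245 in DESeq2 (0 to 259, the highest without heterozygous testis replicate 1).

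Samples shared only a replicate number: deviations correlated at 0.588 between the testes, 0.061 and -0.119 between testis and IP in heterozygotes and homozygotes, and 0.041 between the IPs. With the numbers of the homozygous IP crossed, a pairing added after seeing the data, the block gave 1787 calls.

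Over the results for the 10 genes, without Rnf17, 264 values under other settings kept direction and side of the threshold, 9 turned direction, 4 lost and 1 gained a call; with a library left out these were 182, 29, 3 and 18. Fits with a lone library in a group assume that it varies like the other group. The values that turned under other settings lay near 0. Between the IPs these were Mael at -0.03 and Asz1 at -0.05 in 1 fit over all libraries, and Asz1 at -0.01 in DESeq2 and RLE scaling. In heterozygous IP over testis it was Gtsf1, at -0.01 in both. The Asz1 interaction turned to 0.07 with no filter, 0.0009 with gene symbols only and 0.06 with the replicate block. Turned values were not always near 0 with a library left out, as for Piwil1 between the testes (-0.38). With a library left out, log2 fold changes between the testes ran from -0.38 to 1.57 for Piwil1, -0.09 to 1.29 for Piwil2, -0.56 to 1.07 for Asz1, -0.28 to 0.37 for Pld6 and -1.20 to 0.22 for Ddx4. Between the IPs they ran from -0.01 to 0.10 for Mael, -0.04 to 0.31 for Mov10l1, -0.12 to 0.17 for Asz1 and -0.17 to 0.01 for Ddx4. In heterozygous IP over testis they ran from -1.49 to 0.24 for Asz1 and -0.35 to 0.38 for Gtsf1. In homozygous IP over testis they ran from -1.53 to 0.30 for Piwil1, -0.78 to 0.46 for Piwil2, -0.14 to 0.39 for Piwil4, -0.14 to 0.38 for Pld6, -0.49 to 0.97 for Gpat2 and -0.23 to 1.05 for Ddx4. For the interaction they ran from -0.02 to 1.36 for Piwil2, -1.62 to 0.52 for Piwil4, -0.62 to 1.03 for Asz1 and -1.34 to 0.08 for Ddx4. Rnf17 between the testes passed in DESeq2 (adjusted p = 0.000478), with no filter (0.0486), with the replicate block (0.00736) and in 1 fit (0.0141), and between the IPs it was lost in 1 fit (0.0515). Depth limited Piwil4 most, with 1 to 71 reads per library.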
